A study of Mus musculus with 11 samples.

Results

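The 9 transcription factors described here act in the pancreatic progenitor and in the exocrine (acinar) pancreas. They were chosen by symbol: Ptf1a, Gata4, Gata6, Hnf4a, Onecut1, Mnx1, Prox1, Rbpjl and Bhlha15. All 9 had a row among 25802 genes and 8 had a row among 24391 promoters. The promoter of Rbpjl was not analysed here. Their genes and promoters overlapped 17 of 14841 CpG islands and 56 of 259716 tiles of 5 kb. DNA methylation was measured by reduced representation bisulfite sequencing (RRBS), which cuts DNA at MspI and TaqI sites and reads whether the cytosines of nearby CpG sites are methylated. Coordinates are those of mm10 (GRCm38). The tissue was whole pancreas of C57BL/6N mice at postnatal day 0, so acinar, endocrine, duct and stromal cells were read together. Dams were injected on embryonic days 14.5, 15.5 and 16.5 with 10 mg/kg amphetamine (Amphetamine group, 3 female and 2 male pups) or with saline (Saline group, 3 female and 3 male pups). The 11 pups also gave the second comparison, 6 females against 5 males. No transgene or mutant allele is named for either group. Which pups shared a dam is not given in the sources used here, so that p-values measure only the spread between these mice. Group means, SDs and the lowest and highest mouse were analysed, not the values of single mice.

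As background, the pancreas arises from foregut endoderm, where Ptf1a, a bHLH factor, together with GATA and HNF factors commits cells to a pancreatic fate. Later Ptf1a joins Rbpjl, a Notch-independent relative of Rbpj, in the complex that drives digestive enzyme genes in acinar cells, and Bhlha15 (Mist1) shapes their secretory apparatus. Promoters dense in CpG sites are as a rule unmethylated in all tissues, whether the gene is active or not, whereas CpG-poor promoters and gene bodies are mostly methylated.

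The sequences around the start sites differ in how many CpG sites they hold, and these counts are set beside the methylation levels below. Shown are 300 bases of RefSeq promoters (GRCm38.p6, 250 bases before the start and 50 after, read along the gene's strand) of a CpG-dense pair, Ptf1a and Onecut1, of the CpG-poor upstream start of Hnf4a, and of the acinar factors Rbpjl and Bhlha15, with each CpG in capitals. They lie at chr2:19445413-19445712 (plus strand), chr9:74861671-74861970 (plus), chr2:163506607-163506906 (plus), chr2:164402944-164403243 (plus) and chr5:144190036-144190335 (plus).
Ptf1a: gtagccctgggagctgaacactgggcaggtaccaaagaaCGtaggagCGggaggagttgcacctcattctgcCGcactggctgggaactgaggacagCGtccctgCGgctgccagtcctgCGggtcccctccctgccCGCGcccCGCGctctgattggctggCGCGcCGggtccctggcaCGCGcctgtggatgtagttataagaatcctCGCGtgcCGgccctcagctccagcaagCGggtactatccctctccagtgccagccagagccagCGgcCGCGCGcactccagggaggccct
Onecut1: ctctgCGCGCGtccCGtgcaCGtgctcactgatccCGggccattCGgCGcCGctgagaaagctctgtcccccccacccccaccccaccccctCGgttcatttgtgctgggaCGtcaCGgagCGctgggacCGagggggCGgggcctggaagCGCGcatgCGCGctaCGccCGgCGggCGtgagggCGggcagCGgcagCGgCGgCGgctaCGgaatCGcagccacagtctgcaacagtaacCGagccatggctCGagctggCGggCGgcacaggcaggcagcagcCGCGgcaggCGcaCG
Hnf4a: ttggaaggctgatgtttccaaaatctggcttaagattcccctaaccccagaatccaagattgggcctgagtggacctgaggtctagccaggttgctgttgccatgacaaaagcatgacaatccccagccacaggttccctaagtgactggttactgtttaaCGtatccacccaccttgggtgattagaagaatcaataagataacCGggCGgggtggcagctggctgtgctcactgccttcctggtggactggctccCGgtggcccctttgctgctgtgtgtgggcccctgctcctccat
Rbpjl: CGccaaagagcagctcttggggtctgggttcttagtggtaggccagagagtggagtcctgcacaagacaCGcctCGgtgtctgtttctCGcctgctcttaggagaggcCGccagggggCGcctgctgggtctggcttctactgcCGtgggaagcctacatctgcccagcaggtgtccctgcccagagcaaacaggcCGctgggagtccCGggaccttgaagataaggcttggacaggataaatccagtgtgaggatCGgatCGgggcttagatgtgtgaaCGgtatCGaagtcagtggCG
Bhlha15: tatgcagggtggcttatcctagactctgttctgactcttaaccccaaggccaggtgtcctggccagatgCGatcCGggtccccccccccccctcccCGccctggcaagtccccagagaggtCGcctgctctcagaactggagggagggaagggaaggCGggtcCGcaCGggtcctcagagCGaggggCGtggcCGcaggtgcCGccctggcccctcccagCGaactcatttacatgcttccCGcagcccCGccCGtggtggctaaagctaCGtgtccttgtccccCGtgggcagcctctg
The counts were 23 CpG sites for Ptf1a, 38 for Onecut1, 4 for Hnf4a, 14 for Rbpjl and 17 for Bhlha15, beside a median of 7 over 32851 RefSeq promoters. RefSeq promoters were matched for 7 of the 9 factors. The letters of the MspI site (CCGG, which reads the same on both strands) occurred in all 5 sequences and in 52.8% of all RefSeq promoters. Those of the TaqI site (TCGA, likewise palindromic) occurred in the sequences of Onecut1 and Rbpjl and in 22% of all.

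Around their gene starts, 5 of the 8 factors with a promoter row had almost unmethylated promoter windows. A Saline mean under 10% was found for these 5 of 8 (62.5%), beside 52.1% of all promoters, whose median was 8.15%. The window reached from 1500 bp upstream of the deposited gene start to 500 bp downstream. In the Saline group the promoter of Gata6, a zinc finger factor of endoderm, had a mean methylation of 0.714% ± 0.672 (SD, n = 6), with mice between 0% and 1.62%. Mnx1, a homeobox factor required for the dorsal pancreatic bud, had 1.60% ± 1.76 (0% to 4.28%). Prox1, a homeobox factor of endodermal progenitors and lymphatic endothelium, had 1.84% ± 1.35 (0.75% to 4.41%). The ranges of these 3 overlapped, so that their order was not resolved. Ptf1a followed with 3.56% ± 2.82 (0.458% to 8.62%). Onecut1 (Hnf6), a homeodomain factor that acts upstream of Neurog3, had 3.84% ± 3.25 (0.429% to 9.91%). Their ranges too overlapped those of the 3 before. Mean coverage in these 5 windows was between 243 and 709 in the Saline group and between 482 and 855 in the Amphetamine group. Coverage was taken as reads added up over CpG sites, so that a read can count at several sites.

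The other 3 promoter windows were partly methylated, and only the one of Gata4 was measured well. Its window had 40.7% ± 15.9 (SD, n = 6) in the Saline group, with mice between 20% and 58.6%, all above every Saline mouse of the 5 unmethylated promoters. Hnf4a, a nuclear receptor of endodermal epithelia, had 44.6% ± 52.3 over 4 of 6 Saline mice at a mean coverage of 3.83, and its mice spread from 0% to 100%. Bhlha15 had 18.8% ± 23.9 over 4 of 6 Saline mice at a mean coverage of 2.83, with mice between 0% and 50%. At such coverage a mouse's value rests on a few reads, and neither promoter could be placed against Gata4 or against each other.

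**Figure D1:**
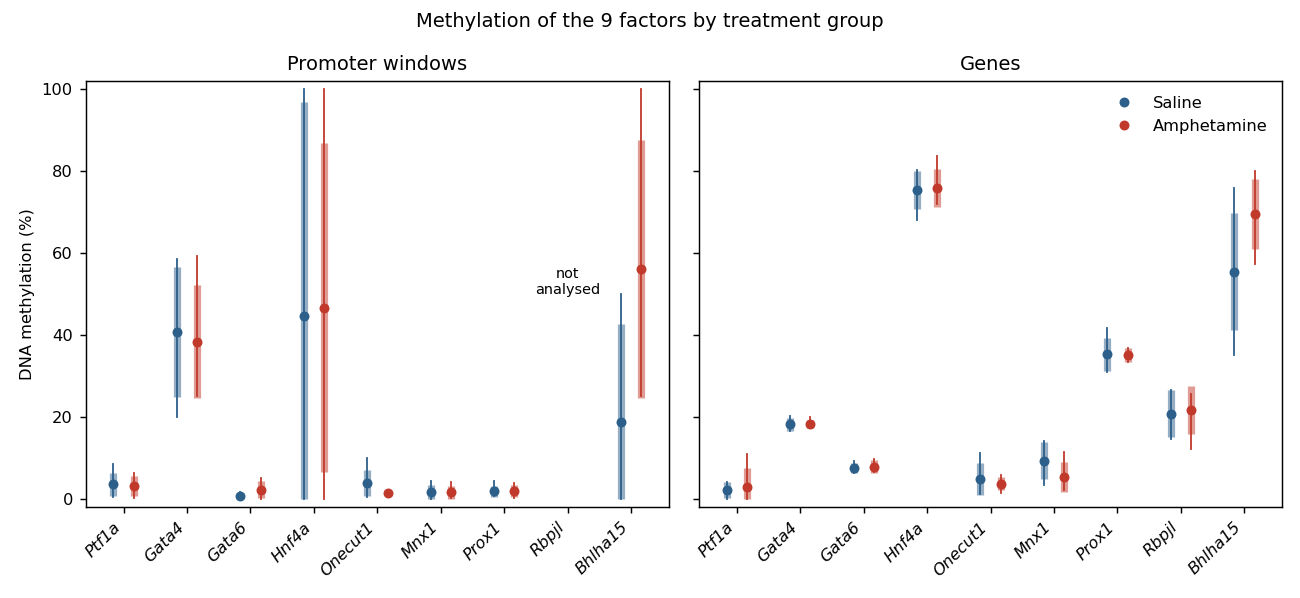
DNA methylation (percent, vertical axis) of the promoter windows (left) and genes (right) of the 9 factors in Saline (blue) and Amphetamine (red) pups. Points are group means, thick bars the mean ± SD limited to 0% and 100%, thin lines the lowest to the highest mouse. The promoters of Ptf1a, Gata6, Onecut1, Mnx1 and Prox1 lie under 10% in every mouse, those of Hnf4a and Bhlha15 span wide ranges, and the groups overlap for all factors.

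The number of CpG sites in the windows was set beside these levels as a description. The 5 unmethylated windows held between 95 and 119 CpG sites in the GRCm38 sequence: Gata6 95, Prox1 99, Ptf1a 101, Mnx1 117 and Onecut1 119. The other 3 windows, of which only that of Gata4 was measured well, held 25 (Gata4), 30 (Hnf4a) and 39 (Bhlha15). The median over all promoters was 58. Of 7612 promoters with over 80 CpG sites, 89.9% had a Saline mean under 10%, and of 5912 promoters with 21 to 40 sites, 11% did, with a median of 75%. The 5 CpG-dense factors lay under 10%, as most promoters of like CpG content did. Of the CpG-poor ones, Gata4 had 40.7%, and every Saline mouse was at 58.6% or less, under the 75% median. The windows of Hnf4a and Bhlha15 had too few reads to be placed against that median. The window of Bhlha15 held 2 MspI and 2 TaqI sites and that of Mnx1 15 and 4. Of their CpG sites, 16 and 94 lay within a 50-base read of a cut (mean Saline coverage 2.83 and 661). For Hnf4a 12 CpG sites did (coverage 3.83), and for Gata4 10 did (coverage 103). Whether these counts account for the coverage was not tested.

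**Figure D2:**
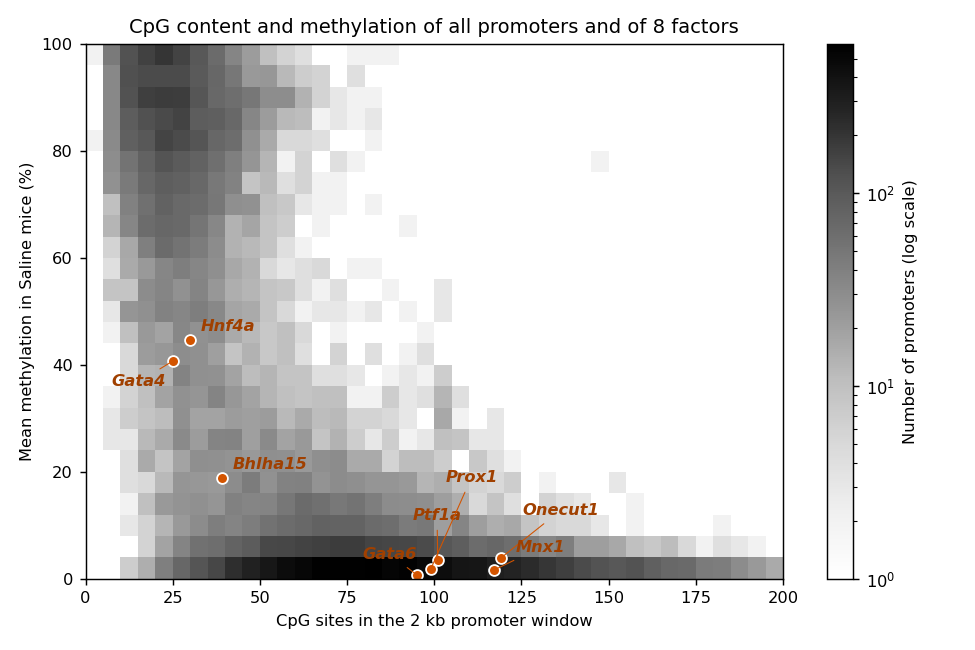
Number of CpG sites in the 2 kb promoter window (horizontal axis, shown up to 200) against mean methylation in Saline mice (percent, vertical axis) for all promoters. Grey shading gives the number of promoters per cell on a log scale, and orange points are the 8 factors. Ptf1a, Gata6, Onecut1, Mnx1 and Prox1 lie in the dense unmethylated band, and Gata4, Hnf4a and Bhlha15 at 25 to 39 CpG sites and 18.8% to 44.6%.

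For Gata4 and Hnf4a the promoter row covers a distal start and not the start sites of the GENCODE M21 basic transcripts. The Gata4 window (chr14:63271193-63273192, minus strand gene at chr14:63198922-63271692) lies 26.4 kb upstream of the basic start sites 63245248 and 63245271. A CpG island of 734 bp at those sites (chr14:63245178-63245911) had 0.563% ± 0.909 in the Saline group (SD, n = 6), with mice between 0% and 2.09%. Another basic start site, 63213607, lies in a tile (chr14:63210001-63215000) at 75.3% ± 24.2. The mice of the island lay in the range of the Gata6 promoter or just above it, and all lay under those of the distal window. The Hnf4a window (chr2:163505308-163507307, plus strand gene at chr2:163506808-163572910) lies 40.4 kb upstream of the basic start sites 163547187 and 163547188. The tile that holds those sites (chr2:163545001-163550000) had 68.4% ± 12.0 in the Saline group, and the tile over the distal start had 80.2% ± 23.8. These are means over 5 kb and do not give the level at the starts themselves. The 300 RefSeq bases around the basic starts held 0 CCGG and 0 TCGA sites. RefSeq has starts in both places.

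Over the whole gene the Saline means of the 9 factors ran from 2.17% to 75.5%. In the Saline group the order was Ptf1a with a mean of 2.17% (mice from 0% to 4.19%), Onecut1 with 4.79% (1.06% to 11.3%), Gata6 with 7.59% (6.19% to 9.26%) and Mnx1 with 9.35% (3.47% to 14.2%). Gata4 came next with 18.2% (16.6% to 20.2%) and Rbpjl with 20.8% (14.5% to 26.5%). Prox1 had 35.3% (31% to 41.7%), Bhlha15 55.5% (35.1% to 75.9%) and Hnf4a 75.5% (68.1% to 80.3%). Between neighbours in this order the mice did not overlap from Mnx1 to Gata4 and from Rbpjl to Prox1, and overlapped elsewhere. The factors' median was 18.2%, beside 52.7% over all genes, and 4 of 9 (44.4%) lay under 10%, beside 13% of all genes. The level of a gene is a mean over the CpG sites that RRBS reaches, which need not represent the whole gene. For Onecut1 only 2 of the 7 tiles spanned were measured, both near its start.

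Along the genes, 6 of the 9 factors had an unmethylated 5 kb tile at the start, beside 43.6% of all genes with a measured start tile. A run was counted as the neighbouring measured tiles around the gene start with a Saline mean under 10%. Onecut1 had the longest, 5 tiles or 25 kb (chr9:74845001-74870000), with means of 2.44% to 6.59%. Ptf1a had 3 tiles (chr2:19440001-19455000, 2.04% to 3.72%) and Prox1 had 3 (chr1:190165001-190180000, 1.76% to 3.42%). Gata6, Mnx1 and Rbpjl had 1 tile each, at 1.95%, 2.57% and 4.39%. The start tiles of Gata4, Hnf4a and Bhlha15 were at 37.3%, 80.2% and 53.3%, and so had no run. Runs of 2 or more tiles thus stood at 3 of 9 factors, beside 8.22% of 22853 genes with a measured start tile, and runs of 3 or more at the same 3 factors, beside 1.76% of genes. With the Amphetamine means the count was 3 of 9 too, beside 8.32% of genes. The factors were named for their role and not drawn from a list of all regulators, so these shares are a description.

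Further into the gene, 3 of the factors with a low start tile reached high methylation. In Gata6 (chr18:11052510-11085635) the Saline means went from 1.95% in the start tile to 14.3% in the next and 65.5% in the one after. In Rbpjl (chr2:164403141-164415448) the tiles read 4.39%, 12.8%, 83.3% and 66.8% along the gene. Those at 4.39% and 12.8% also overlap Matn4. Prox1 (chr1:190118035-190170714, minus strand) went from 3.42% to 71% in the next tile into the gene, and its other tiles with reads in at least 3 Saline mice lay between 54% and 100%. Gata4 had low tiles in 3 places within 30 kb of its distal start. They were chr14:63265001-63270000 at 7.56% ± 3.19, chr14:63255001-63260000 at 9.75% ± 2.19 and chr14:63245001-63250000 at 3.66% ± 3.05 (SD, n = 6 each). Between them lay tiles at 54.6% ± 24 and 35.2% ± 15.9, and the mice of the last of these (14.9% to 54%) were all above those of the lowest tile (0.265% to 8.52%). Ptf1a, Onecut1 and Mnx1 had no measured tile above 60%, with highest Saline means of 3.72%, 6.59% and 28.5%. For Onecut1 only 2 of the 7 tiles spanned were measured, both near the start, so the rest of its gene was not read. Hnf4a had no measured tile under 10% among 13, and 12 of its tiles were above 60%. For Bhlha15 (chr5:144190286-144194441) the tile before the gene was at 85.6% and the tile on the gene at 53.3%.

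**Figure D3:**
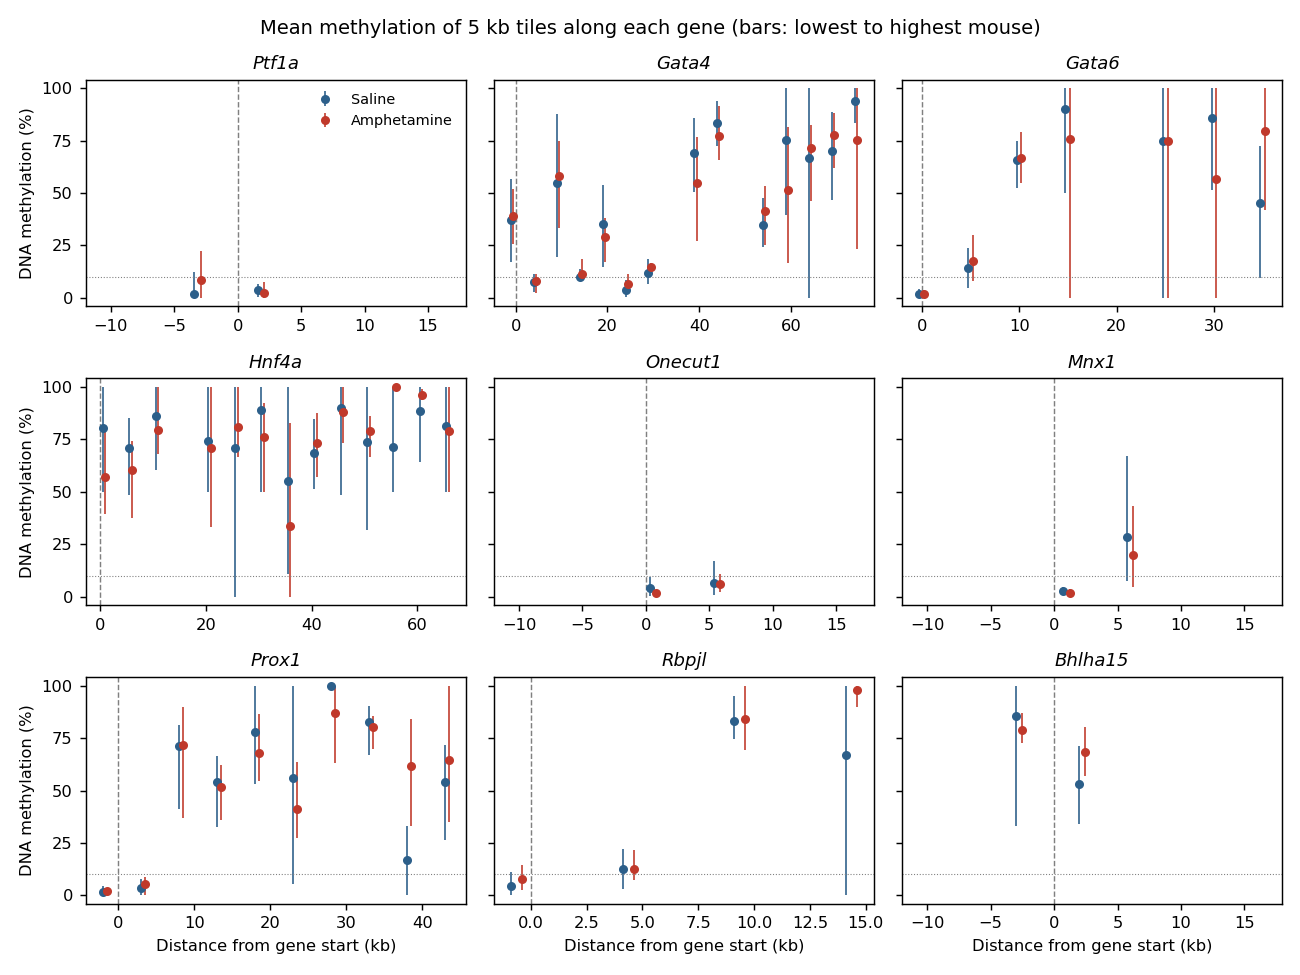
Mean methylation of 5 kb tiles (percent, vertical axis) against the distance of the tile's centre from the deposited gene start in kb (horizontal axis, positive into the gene), 1 panel per factor. Points are Saline (blue) and Amphetamine (red) means, lines run from the lowest to the highest mouse, the dashed line is the gene start and the dotted line 10%. Ptf1a, Onecut1 and Prox1 are low on both sides of the start or beyond it, Gata4 dips under 10% in 3 separate tiles, and Hnf4a is high throughout.

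The 17 CpG islands of the factors had a median of 2.97% in the Saline group, beside 2.09% over all islands, and 12 of 17 (70.6%) lay under 10%, beside 87%. The islands that held a basic start site were all low in the Saline group: Ptf1a 3.30%, Gata4 0.563%, Onecut1 1.75%, Mnx1 2.55% and the Prox1 pair 1.27% and 1.67%. The first of Gata6, centred 0.304 kb into the gene, had 1.06%. The other islands varied. Those of Gata4 at chr14:63255683-63256125 and chr14:63240596-63241125 had 1.73% ± 1.28 and 4.86% ± 2.40, and the second of Gata6 had 3.20% ± 1.20. The first of Rbpjl had 0% in all 5 Saline mice with reads, at a mean coverage of 29.7. Others were higher and spread widely between mice. The island of Mnx1 at chr5:29474029-29474397, which is 55% exonic and lies 4.26 kb into the gene, had 40.7% ± 30.6 (0% to 75.1%, n = 6). The single island of Bhlha15 (chr5:144191198-144191482), wholly exonic and centred only 1.05 kb into the gene, had 47.8% ± 26.7 (16.7% to 92.9%). The third Gata6 island had 16.7% ± 22.1 over 5 Saline mice, and the Gata4 island at chr14:63251555-63251766, in an intron, had 22.3% ± 21.9. The second Rbpjl island (chr2:164414361-164414612) had 50.4% ± 50 over 3 Saline mice (0% to 100%), at a mean coverage of 8.83.

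The comparison of Amphetamine with Saline pups asks whether prenatal exposure altered methylation at these genes, and none of the factors' regions passed the test. Regions were tested with limma's moderated statistic (two-sided, Benjamini-Hochberg adjustment over all regions of a class with reads in at least 3 mice per group). An adjusted p under 0.05 was reached by 0 of 8 promoters of the factors, beside 0.00417% of all promoters, by 0 of 9 genes, beside 0%, by 0 of 17 islands, beside 0%, and by 0 of 55 tiles, beside 0.00355%. The smallest adjusted p among the factors was 0.922. An unadjusted p under 0.05 was reached by no promoter (4.51% of all), no gene (4.3%), 1 island (3.96%) and no tile (4.26%) of the factors. With reads in all mice, the groups overlapped in all 6 promoters, 9 genes, 14 islands and 43 tiles of the factors, and failed to overlap in 0.395% of all promoters, 0.312% of genes, 0.443% of islands and 0.351% of tiles. The factors' median difference was -0.0141 percentage points over promoters, beside 0 over all, and 0.274 over genes, beside -0.0938 over all. In whole pancreas, a shift in the share of a cell type and a shift in methylation per cell cannot be told apart.

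For the unmethylated promoters the intervals leave room only for small differences. The promoter of Prox1 had 1.84% ± 1.45 in Amphetamine (SD, n = 5) and 1.84% ± 1.35 in Saline pups, a difference of 0.00405 percentage points with a 95% confidence interval from -1.83 to 1.84. For Mnx1 it was 1.57% ± 1.57 and 1.60% ± 1.76 (-2.19 to 2.13), and for Ptf1a 3.20% ± 2.46 and 3.56% ± 2.82 (-3.77 to 3.03). Onecut1 had 1.33% ± 0.754 in Amphetamine pups, with mice from 0.332% to 2.02%, and 3.84% ± 3.25 in Saline pups. No Amphetamine mouse exceeded 2.02% while Saline mice ranged from 0.429% to 9.91%, so that the groups overlapped, and the difference was -2.50 points (-5.65 to 0.64, adjusted p = 0.929). Gata6 had 2.19% ± 2.05 (0% to 5%) against 0.714% ± 0.672 (0% to 1.62%), a difference of 1.47 points (-0.425 to 3.37, adjusted p = 0.929). At Gata4 it was -2.33 points with an interval from -23.6 to 18.9, where the SDs between mice were 13.9 and 15.9, and at Hnf4a 2.03 points with one from -63 to 67.1. Large differences of either sign are thus not excluded at these promoters.

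Bhlha15 had the widest gap between the groups over genes, short of the threshold. The gene had 69.5% ± 8.51 in Amphetamine pups (57.4% to 80.1%, n = 5) and 55.5% ± 14.2 in Saline pups (35.1% to 75.9%, n = 6), at mean coverages of 262 and 205, a difference of 14.0 points (-1.32 to 29.3, adjusted p = 0.978). The groups overlapped between 57.4% and 75.9%. Its tile (chr5:144190001-144195000), which rests on nearly the same reads, had 68.3% against 53.3%. Its island had 44.6% ± 16.8 against 47.8% ± 26.7, the other direction. The promoter had 56.2% ± 31.5 against 18.8% ± 23.9 over 4 mice each, at mean coverages of 1.8 and 2.83 (difference 37.5 points, -6.16 to 81.2, adjusted p = 0.929). Mnx1 was next over genes, with 5.30% ± 3.70 against 9.35% ± 4.43 (-4.05 points, -9.27 to 1.16, adjusted p = 0.978). The other 7 genes differed by 1.09 points or less.

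Of the islands, the one with an unadjusted p under 0.05 was in Prox1 (chr1:190169226-190169601, 46.3% exonic, holding the basic start site 190169399). It had 8.68% ± 6.46 in Amphetamine pups (0% to 16.7%, n = 5) and 1.67% ± 3.23 in Saline pups (0% to 8.08%, n = 6). The groups overlapped, and the difference of 7.01 points (0.794 to 13.2) had an unadjusted p of 0.0305 and an adjusted p of 0.922 by limma. The Prox1 island at the upstream start (chr1:190170591-190171031) had 1.25% ± 1.22 and 1.27% ± 1.60. In Gata4 the wholly exonic island chr14:63240596-63241125 had 9.83% ± 5.39 against 4.86% ± 2.40 (4.97 points, -0.321 to 10.3). Another 3 Gata4 islands, within 2 kb of the basic starts or in the intron at chr14:63255683-63256125, were likewise higher in Amphetamine pups by 1.24 to 3.33 points, and the one at chr14:63251555-63251766 was lower (-9.7 points), each with an interval that spans 0.

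Among tiles with reads in all mice, the one of smallest unadjusted p was taken for each factor, and none passed 0.05. The tile of Hnf4a at chr2:163505001-163510000, over its distal start, had 57.1% ± 19.6 (39.2% to 81.4%) in Amphetamine and 80.2% ± 23.8 (50% to 100%) in Saline pups, a difference of -23.1 points (-51.4 to 5.12). In Ptf1a the upstream tile (chr2:19440001-19445000) had 8.75% ± 9.64 against 2.04% ± 5 (6.71 points, -2.54 to 16). The tile of Gata4 at the basic starts had 6.60% ± 2.90 against 3.66% ± 3.05 (2.94 points, -0.936 to 6.82). For Onecut1 (start tile) it was 1.69% against 4.05%, for Mnx1 (start tile) 1.78% against 2.57%, for Rbpjl (start tile) 7.73% against 4.39%, for Prox1 (chr1:190150001-190155000) 67.8% against 78.1% and for Gata6 (chr18:11055001-11060000) 17.5% against 14.3%. The directions were mixed, with 27 of 55 tested tiles higher and 27 lower in Amphetamine pups.

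**Figure D4:**
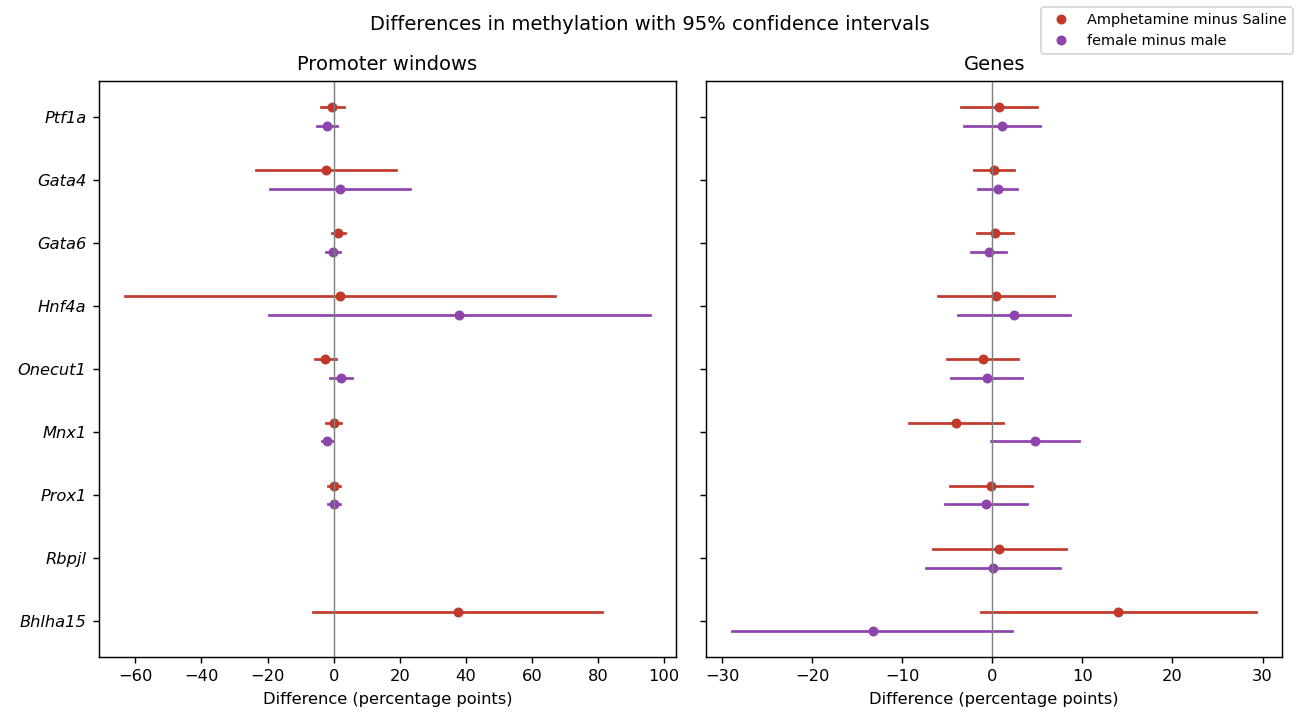
Differences in methylation (percentage points, horizontal axis) for promoter windows (left) and genes (right) of the factors, Amphetamine minus Saline in red and female minus male in purple. Points are differences of group means and lines 95% confidence intervals, and each panel has its own scale. All intervals include 0 except that of the Mnx1 promoter between the sexes (-3.67 to -0.295), and the interval of the Hnf4a promoter reaches from -63 to 67.1 for treatment.

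The comparison of females with males over the same mice gave no call among the factors either. An adjusted p under 0.05 was reached by 0 of 7 promoters tested (0.553% of all), 0 of 9 genes (0.381%), 0 of 17 islands (1.05%) and 0 of 55 tiles (0.0577%). All factors are on autosomes, whereas most calls over all regions were on X and Y: without these, 0 promoters, 1 gene, 0 islands and 5 tiles were called by limma, beside 132, 97, 155 and 145 with them. An unadjusted p under 0.05 was reached by 1 of 7 promoters (6.56% of all), 0 of 9 genes (6.39%), 3 of 17 islands (6.31%) and 2 of 55 tiles (5.39%). All 6 such regions lay in Mnx1 and Gata4. Those of Gata4 overlap, as do those at the start of Mnx1, and share reads, whereas the inner Mnx1 island overlaps none of the others. The sexes overlapped in all of the factors' 6 promoters (1.55% of all did not), 9 genes (1.03%), 14 islands (1.91%) and 43 tiles (0.626%).

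In Mnx1 the means of females and males at the start and inside the gene differed in opposite directions, all short of the threshold. The promoter had 0.689% ± 0.885 in females (0% to 2.33%, n = 6) and 2.67% ± 1.63 in males (0.368% to 4.28%, n = 5), a difference of -1.98 points (-3.67 to -0.295, adjusted p = 0.654). The start tile had 1.17% ± 0.50 against 3.46% ± 1.25 (-2.30 points, adjusted p = 0.82), and the island at the start 1.28% ± 0.608 against 3.48% ± 1.68. These 3 regions cover the same bases in part. The island inside the gene (chr5:29474029-29474397) had 44.7% ± 25.8 in females (10% to 75.1%) and 9.95% ± 15.1 in males (0% to 35.9%), a difference of 34.7 points (7.19 to 62.2, adjusted p = 0.553). The same island had 14.7% ± 15.7 in Amphetamine and 40.7% ± 30.6 in Saline pups (-26.1 points, -57.9 to 5.82), so that the spread between its mice was large in both divisions.

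In Gata4 the region 20 kb inside the distal start had a higher mean in females, short of the threshold. The island chr14:63251555-63251766 had 28.5% ± 16.8 in females (11.6% to 56.2%) and 5.30% ± 4.72 in males (0% to 12.5%), a difference of 23.1 points (6.84 to 39.5, adjusted p = 0.416), and its tile 40.9% ± 9.91 (27.4% to 54%) against 22% ± 6.76 (14.9% to 31.5%), a difference of 18.9 points (7.47 to 30.3, adjusted p = 0.714). The other 4 Gata4 islands differed between the sexes by -3.31 to 2.67 points. Larger gaps than in that tile, in both directions, were found elsewhere in Gata4. They were -45.1 points (-91.1 to 0.92) at chr14:63205001-63210000, 27.2 (-4.68 to 59) at chr14:63210001-63215000 and 22.6 (-2.66 to 47.8) at chr14:63195001-63200000. The whole gene differed by 0.613 points (-1.55 to 2.78). Bhlha15 had 55.8% ± 13.4 in females and 69.1% ± 10.6 in males over the gene (-13.3 points, -28.9 to 2.2, adjusted p = 0.833). In the tiles of the other factors taken by the same rule, females and males had 3.20% and 7.36% in Ptf1a (upstream tile), 1.77% and 2.19% in Gata6 (start tile), 75.7% and 64.3% in Hnf4a (chr2:163545001-163550000), 3.74% and 2.06% in Onecut1 (start tile), 49.1% and 57.6% in Prox1 (chr1:190155001-190160000) and 15% and 9.8% in Rbpjl (chr2:164405001-164410000). The promoter of Bhlha15 had reads in 2 males and was not tested.

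Of 19 other regulators of the pancreatic progenitor and acinar cell, 18 had a promoter and 19 a gene row (Pdx1, Sox9, Nkx6-1, Nkx6-2, Hnf4g, Foxa1, Foxa2, Foxa3, Hes1, Hhex, Isl1, Nr5a2, Rbpj, Tcf3, Tcf12, Onecut2, Onecut3, Gata5 and Xbp1, of which Nr5a2 had no promoter analysed here). In the Saline group 14 of 18 promoters were under 10%, with a median of 4.59%, beside 52.1% of all promoters and a median of 8.15%. Between Amphetamine and Saline pups 0 of 18 promoters and 0 of 19 genes had an adjusted p under 0.05. An unadjusted p under 0.05 was reached by 1 of each (4.51% of all promoters and 4.3% of all genes). Of the promoters, 11 were lower and 7 higher, with a median difference of -0.315 points. The smallest unadjusted p-values over promoters were those of Xbp1, a factor of the secretory stress response, with 0.233% ± 0.521 against 2.35% ± 2.13 (-2.12 points, adjusted p = 0.929), of the pioneer factor Foxa1, with 2.42% ± 1.36 against 5.80% ± 4.6 (-3.37 points, adjusted p = 0.929), and of Hes1, a Notch target that holds progenitors undifferentiated, with 2.44% ± 1.18 against 1.32% ± 1.05 (1.12 points, adjusted p = 0.929). Over genes they were those of Xbp1 (0.419% ± 0.892 against 2.85% ± 1.36, -2.43 points, adjusted p = 0.978), Foxa2 (3.19% against 1.72%) and Hhex (9.10% against 13.5%). Between the sexes 0 of 18 promoters and 0 of 19 genes passed, and 2 promoters and 1 gene had an unadjusted p under 0.05 (6.56% and 6.39% of all).

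The tissue label was set beside methylation of marker genes, which in whole tissue is a weak check because no level of RNA was measured. Over the genes, 8 of 9 acinar enzyme genes had a Saline median of 65.6%, 4 of 5 hepatocyte genes 75.7% and 4 of 5 leukocyte genes 66.3%. Over promoters 5 acinar, 2 hepatocyte and 2 leukocyte genes had a row, with medians of 57.2%, 86.4% and 57.6%. None of these promoters was under 10%. In the Amphetamine group the 3 gene medians were 63.3%, 87.5% and 66.1% and the promoter medians 53.3%, 80.4% and 86%. No marker gene or promoter had an adjusted p under 0.05 for treatment or sex. For treatment, 1 hepatocyte gene and 1 leukocyte promoter had an unadjusted p under 0.05 (4.3% of all genes and 4.51% of all promoters). For sex, 1 acinar gene and 1 leukocyte gene did (6.39% of all genes). Their part in the values of the factors was not tested.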

How the data were processed

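The authors digested DNA of P0 pancreata with MspI and TaqI, sequenced single-end 50 bp reads, used Bismark within NextFlow methylseq for alignment to mm10, and summarized CpGs with RnBeads. The deposited tables are over promoters, genes, CpG islands and tiles, which are 5 kb in the tables, while the study's methods state another bin size. No version of Bismark or limma is given in the sources used here. The deposited methylation values are a fraction averaged over the mice of a group with reads, printed here as percent, with SD, lowest and highest mouse. The deposited coverage is a signal without normalization for depth. The sources used here do not define it, and it was taken as the reads of a region added up over CpG sites. The depth per mouse was not analysed. Over all promoters median coverage was 230 in Amphetamine and 184 in Saline mice. Columns of the authors' own comparisons (differences, log2 quotients, p-values and ranks) were not used, and the number of columns of single mice left unused was 0.

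Groups were taken from the labels. The members and gene lists were chosen with earlier results of these data known. From group means, SDs and numbers of mice with reads, limma 3.58.1 in R 4.3.3 (squeezeVar, prior variance following mean methylation) gave moderated two-sided tests and 95% confidence intervals on the fraction scale, adjusted over all regions of a class with reads in at least 3 mice per group. On simulated mice for 21012 promoters this gave limma's own p-values, and 81% of 200 promoters shifted by 30 percentage points were called for treatment. Only promoters with reads in all mice were simulated, which leaves out those of Hnf4a and Bhlha15. Smaller shifts were not simulated, so the share called at such shifts is not known. CpG, MspI and TaqI sites were counted in GRCm38, the assembly of mm10, after all tiles were found within its chromosome lengths, with GENCODE M21 as annotation. Named were all 9 factors, per factor the tile of smallest unadjusted p for treatment and for sex with reads in all mice, and the 3 other regulators of smallest p over promoters and over genes. Of the other regulators listed, 2 are not reported here. The islands and other tiles in the text were chosen after their values were seen. Alternatives were 1 prior variance, no filter on mice, reads in all 11 mice, coverage of at least 10, no X and Y chromosomes, the other factor (sex or treatment) as an added term, unadjusted p, non-overlap of groups and other ways to count islands, tiles and runs. Start sites of basic transcripts for the runs were added after the data were seen. Python 3.11.15 with pandas 2.3.3 and numpy 2.4.6 was used. The base-pair level methylKit tests were not analysed here.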

Additional observations from a re-analysis of the deposited data

How the results depend on the processing

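No region of the 9 factors reached an adjusted p under 0.05 under any alternative fit run (1 prior variance, no filter on mice, reads in all 11 mice, coverage of at least 10, no X and Y chromosomes, the other factor added, or islands and tiles with their centre inside the gene or promoter). With an unadjusted p under 0.05 in its place, 1 island passed for treatment and 1 promoter, 3 islands and 2 tiles for sex. With sex as an added term the treatment difference changed sign for the promoters of Mnx1 (0.167 percentage points) and Prox1 (-0.0191 points), both near 0. With the other factor added, limma's unadjusted p for treatment was under 0.05 for 0 of 6 promoters (4.39% of all) and 2 of 9 genes (4.46%), Mnx1 and Bhlha15. The same held for 2 of 14 islands (4.18%), in Mnx1 and Prox1, and 1 of 43 tiles (4.69%), in Bhlha15. For sex the counts were 1 of 6 promoters (6.4%), 2 of 9 genes (6.36%, the same as for treatment) and 3 of 14 islands (6.46%). Tiles counted for sex were 5 of 43 (5.73%), 3 of Gata4 and 1 each of Mnx1 and Bhlha15. The p was 0.0159 for the Bhlha15 gene (15.5 points, 3.56 to 27.4, adjusted p = 0.988) and, for the inner Mnx1 island, 0.00751 for treatment (-29.8 points, adjusted p = 0.922) and 0.00169 for sex (37.7 points, adjusted p = 0.115). Runs of 2 or more tiles stood at 5 of 9 factors with a limit of 20% (13.8% of all genes), and at 3 with tiles not measured stepped over (9.41%), with Amphetamine means or with basic start sites. Over all regions, the treatment calls ranged from 0 to 3 promoters, 0 to 5 genes, 0 to 2 islands and 0 to 80 tiles across the fits, and the sex calls from 0 to 147 promoters, 1 to 107 genes, 0 to 167 islands and 5 to 263 tiles, for sex lowest without X and Y. No paired analysis was possible because the replicate numbers only name the mice, no label ties pups of the 2 groups to each other, and only group summaries were analysed. Leaving out each mouse in turn was not run, since only group summaries were analysed. Precision is limited most at the promoters of Hnf4a and Bhlha15, where coverage is lowest.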
